A study of Mus musculus with 12 samples.

Results

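The Gbp (guanylate-binding protein) and Irg (immunity-related GTPase) genes encode GTPases that interferons induce in many cell types. Their mRNAs were followed in LPS-activated mouse B cells with and without DNA damage. The genes were chosen by name, as the rows of the deposited table of normalized counts called Gbp2, Gbp3, Gbp4, Gbp5, Gbp7, Gbp9, Irgm1, Irgm2, Igtp and Iigp1. Of these 10 names, 9 matched a row among the 29486 genes of the table, and Gbp5 was not analysed here. All 9 were among the 15507 genes kept by a filter of at least 10 in at least 4 libraries, Iigp1 through its values in LPS and LEKU alone.

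Gbp and Irg proteins gather on the membranes of vacuoles that hold intracellular bacteria and parasites, where they damage the vacuole and expose the microbe to autophagy factors and inflammasomes. The Irg proteins fall into regulators, here Irgm1, Irgm2 and Igtp (also called Irgm3), which keep the GTPases off the cell's own membranes, and effectors such as Iigp1 (Irga6), which load onto the vacuole. Interferon gamma and type I interferons, which signal through receptors, Jak kinases and transcription factors, are their best known inducers. Factors activated by interferon gamma bind GAS elements, and those activated by type I interferons, among them Stat2 and Irf9, bind interferon-stimulated response elements (ISREs) in the promoters of such genes.

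Total cellular mRNA was sequenced from splenic B cells of C57BL/6Babr mice, purified with an isolation kit and activated with LPS, in 3 groups of 4 libraries, biological replicates by the account of the methods. LPS cells received LPS at 10 µg/ml for 48 h. LE cells received etoposide, a topoisomerase II inhibitor that causes DNA double-strand breaks, at 20 µM for 4 h after 48 h of LPS. LEKU cells were given KU55933, an inhibitor of the ATM kinase that signals such breaks, at 10 µM after 47 h of LPS, 1 h before the same etoposide treatment. No group received KU55933 without etoposide, and the labels do not give whether LPS cells stayed in culture for the further 4 h. Each group carries sequencing indexes that no other group carries, so index and group cannot be told apart.

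The 4 columns of a group proved to be the same profile multiplied by a library size factor, for every gene. The deposited values are thus fitted group means and hold no spread between replicates. Each group gave 1 level per gene, no test was possible, and a difference is called below where it passes 1.5-fold, which is 0.58 on the log2 scale. Library totals were about 20700000 to 23900000 in LPS, 22500000 to 30600000 in LE and 20400000 to 25100000 in LEKU. The 6 B cell markers were all high, with summed levels of 115015 in LPS, 70789 in LE and 79178 in LEKU. Of these markers, 5 were lower in LE past 1.5-fold, beside 16.2% of all kept genes. The count went from 2 with library totals to 6 with no filter. The 7 T cell markers summed to 11.6, 23.2 and 15.2, the 8 macrophage and monocyte markers to 422, 473 and 436, and the 4 of 5 NK cell markers in the table to 3.27, 5.98 and 5.40. Among the 5 dendritic cell markers, summing to 2910, 1840 and 3356, Flt3 carried 2802, 1652 and 2943 and Zbtb46 103, 182 and 407, while Itgax, Siglech and Clec9a stayed at or under 5.17. The 4 red blood cell markers summed to 70.7, 91.2 and 45.9. The part of these markers in the results below was not tested. In bulk RNA, fewer cells of a type and less RNA per cell cannot be told apart.

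The genes did not share 1 direction in LE. Of the 9 genes, 7 were lower in LE than in LPS, led by Gbp7, as were 7931 of the 15507 kept genes. Igtp mRNA stood 3.25-fold higher in LE, and Irgm2 was higher without passing 1.5-fold. With KU55933 present, 8 of the 9 were higher than with etoposide alone and Igtp was lower, where 7085 of the 15507 kept genes were higher. Both counts include the scarce Iigp1, which passed the filter through LPS and LEKU alone, so its differences from LE are no result. Summed over the 9 genes, the level was 28569 in LPS, 23485 in LE and 28582 in LEKU. Without Igtp, the other 8 summed to 26784, 17685 and 24687. The near equality of the sums in LPS and LEKU at this scaling therefore held a higher Igtp and a lower sum of the rest in LEKU. The lower sum of the rest, a log2 ratio of -0.12, depends on the scaling. Library totals shifted the median of all kept genes by 0.17 in LEKU against LPS, which is more than this ratio.

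**Figure D1:**
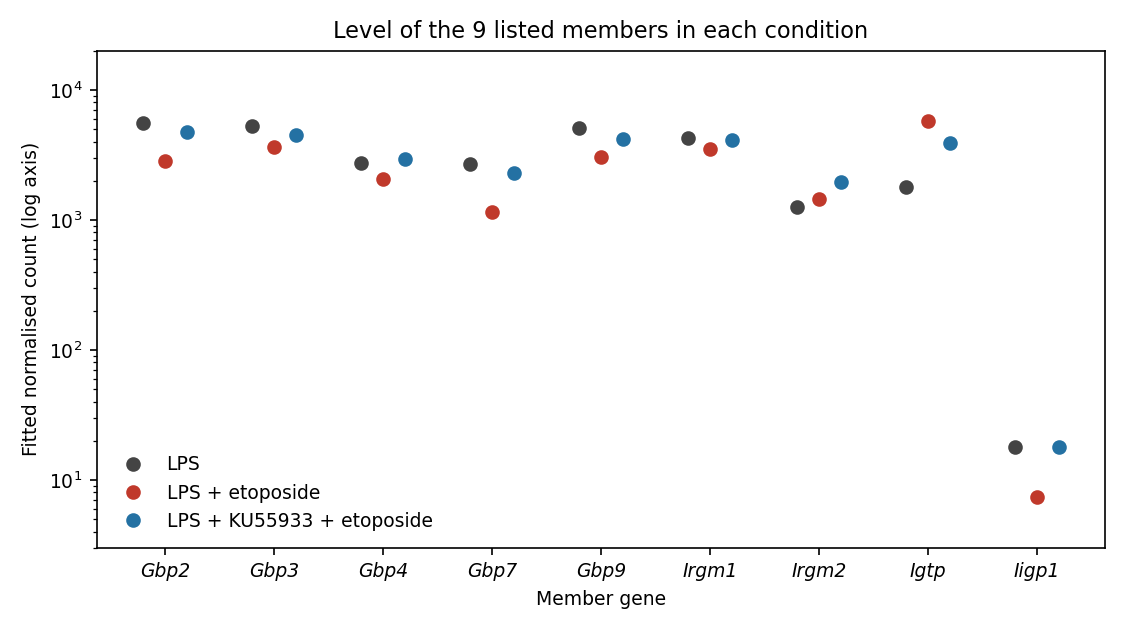
Level of the 9 genes in each group. Each point is the fitted normalised count of 1 group (log axis; no error can be given), in grey for LPS, red for LPS with etoposide and blue for LPS with KU55933 and etoposide. The red point is the lowest for 7 genes, lies between the others for Irgm2, and is the highest for Igtp, at 5800 against 1785 in LPS.

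The 3 Irg regulators lie on chromosome 11, Irgm1 apart from the neighbouring pair Igtp and Irgm2. Igtp (ENSMUSG00000078853; GRCm38 chr11:58199556-58207591, plus strand) was deposited at 1459, 1619, 1684 and 1517 in LPS replicates 1 to 4. It was at 5636, 6317, 7651 and 6124 in LE, and at 3534, 3985, 4269 and 4340 in LEKU. The LE columns are the highest, the LPS columns the lowest, and within a group the values differ only by the size factors of the libraries, so that the gaps between columns say nothing of replicates. After removal of these factors, the Igtp level was 1785 in LPS, 5800 in LE and 3895 in LEKU. Its log2 difference was 1.70 for LE against LPS, higher than that of 14345 of the 15507 kept genes. For LEKU against LE it was -0.57, just short of the 1.5-fold call, and for LEKU against LPS it was 1.13.

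Irgm2 (ENSMUSG00000069874; chr11:58199618-58222782, plus strand), which encodes another regulator of Irg loading, had columns of 1033, 1146, 1192 and 1074 in LPS. The LE columns were 1404, 1574, 1906 and 1526, and those of LEKU were 1771, 1997, 2139 and 2174. Its levels of 1264, 1445 and 1952 were stepwise higher from LPS to LE to LEKU, unlike those of its neighbour Igtp. The log2 differences of Irgm2 were 0.19 for LE against LPS, 0.43 for LEKU against LE and 0.63 for LEKU against LPS. Only this last one passed 1.5-fold, and with no filter, at 0.57, it did not.

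Both genes share sequence. In the GENCODE M21 annotation of GRCm38, 162 exon bases belong to both Igtp and Irgm2 on the same strand, which is 8.01% of the exon bases of Igtp and 4.39% of those of Irgm2. A 100-base window of transcript sequence was shared with Irgm2 in 5.16% of the Igtp windows. How the authors' counting treated reads in these exons is not given in the sources used here, so a small part of each value is uncertain. Summed, Igtp and Irgm2 stood at 3049 in LPS, 7245 in LE and 5847 in LEKU.

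**Figure D2:**
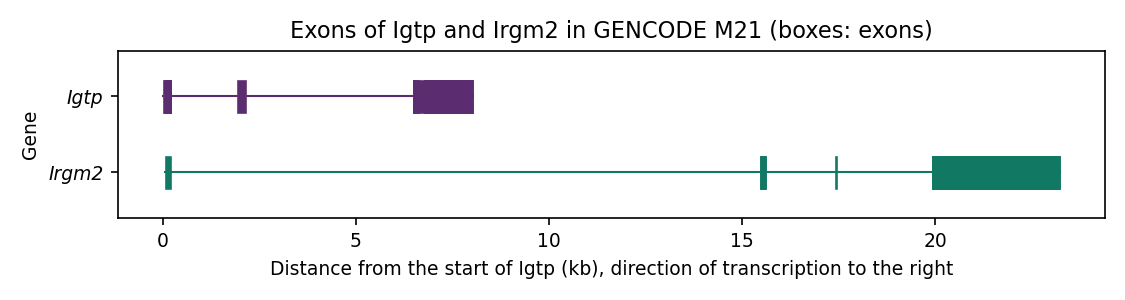
Exons of Igtp and Irgm2 in GENCODE M21, drawn to scale against the distance in kb from the start of Igtp, with transcription to the right. Boxes are exons and lines the introns. The first exon of Irgm2 lies on that of Igtp, where the 162 shared bases are, and the large last exons are apart.

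Irgm1 (ENSMUSG00000046879; chr11:48861968-48871683, minus strand), a regulator that also takes part in autophagy, differed least between groups. Its level was 4244 in LPS, 3483 in LE and 4095 in LEKU. The log2 differences of -0.28 for LE against LPS and 0.23 for LEKU against LE did not pass 1.5-fold. No 100-base window of Irgm1 was found in transcripts of another gene.

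Gbp2, Gbp3 and Gbp7 lie in 1 cluster on chromosome 3, with Gbp2b between Gbp3 and Gbp2, and showed 1 direction in each comparison. Their sum was 13489 in LPS, 7659 in LE and 11534 in LEKU. Gbp2 (ENSMUSG00000028270; chr3:142620602-142638008, plus strand), a lipid-anchored Gbp that moves to pathogen vacuoles, had columns of 4521, 5016, 5218 and 4702 in LPS. It had columns of 2777, 3113, 3770 and 3018 in LE and of 4288, 4836, 5181 and 5266 in LEKU. With the size factors removed, the Gbp2 levels were 5531 in LPS, 2858 in LE and 4727 in LEKU, lowest in LE. Its log2 difference was -0.95 for LE against LPS and 0.73 for LEKU against LE, both past 1.5-fold.

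Gbp7 (ENSMUSG00000040253; chr3:142530342-142550149, plus strand), which has been tied to antimicrobial oxidant production and autophagy, was, with the scarce Iigp1, the gene with the lowest log2 differences in LE. Its columns were 2196, 2436, 2534 and 2284 in LPS, 1108, 1242, 1505 and 1204 in LE, and 2092, 2359, 2527 and 2568 in LEKU. Gbp7 was thus lowest in LE. From levels of 2686, 1141 and 2305, the log2 differences of Gbp7 were -1.24 for LE against LPS and 1.01 for LEKU against LE. The first was lower than that of 14978 of the kept genes and the second higher than that of 15248. Gbp7 shares 637 exon bases with Gm43802, 11.3% of its own, and how reads there were counted is not known.

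Gbp3 (ENSMUSG00000028268; chr3:142560026-142573209, plus strand) was at 5271 in LPS, 3660 in LE and 4502 in LEKU. Its log2 differences of -0.53 for LE against LPS and 0.30 for LEKU against LE had the signs of its neighbours and missed 1.5-fold, which the first of them passed with no filter, at -0.61. Between LEKU and LPS, the 3 genes of chromosome 3 were close to each other, with log2 differences of -0.23 for Gbp2, -0.23 for Gbp3 and -0.22 for Gbp7. These small values turned positive under 1 or more scalings for Gbp2 and Gbp3, whose ranges were -0.29 to 0.096 and -0.29 to 0.086.

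Gbp4 and Gbp9 belong to the second Gbp cluster, on chromosome 5. Gbp9 (ENSMUSG00000029298; chr5:105077630-105139539, minus strand) was at 5053 in LPS, 3031 in LE and 4153 in LEKU. It was lower in LE past 1.5-fold, at a log2 difference of -0.74, and its LEKU against LE difference of 0.45 was short of the call. With quantile normalization Gbp9 was at -0.54 in LE, not past 1.5-fold. Gbp4 (ENSMUSG00000079363; chr5:105115767-105139586, minus strand), at 2718, 2060 and 2936, differed by -0.40 and 0.51 on the log2 scale, neither past 1.5-fold. With quantile normalization the second passed it, at 0.60. In LE against LPS and in LEKU against LE, both genes pointed the same way as the cluster on chromosome 3. In LEKU against LPS, Gbp4 was at 0.11 and Gbp9 at -0.28, the latter at 0.014 with quantile normalization. They share 60 exon bases, and 1.64% of the 100-base windows of Gbp4 and 1.65% of those of Gbp9 also occur in other genes of the cluster.

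Promoters of the Gbp and Irg genes are shown because Igtp and several genes that differed in the other direction in LE carry the same element. RefSeq promoters on GRCm38.p6, from 250 bases before to 50 after the start, were at hand for 7 of the 10 named genes, Gbp5 included, and not for Gbp4, Gbp9 and Iigp1. In the following stretches, printed 5′ to 3′ on the coding strand, capitals mark the ISRE core, searched on both strands as 2 copies of GAAA with any 2 bases between them. Where 2 cores overlap, the capitals run through both. The GENCODE M21 models of Irgm1, Gbp2 and Gbp3 start before the RefSeq starts used here. By M21, exons of the gene itself hold 30 of the 30 bases printed for Irgm1, 22 of 30 for Gbp2 and 18 of 80 for Gbp3.

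Igtp chr11:58199476-58199555, plus strand: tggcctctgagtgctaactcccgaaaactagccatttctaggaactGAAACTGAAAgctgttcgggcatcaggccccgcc
Irgm2 chr11:58214867-58214946, plus strand: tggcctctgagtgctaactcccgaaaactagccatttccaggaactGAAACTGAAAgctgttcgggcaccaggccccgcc
Irgm1 chr11:48871428-48871457, minus strand: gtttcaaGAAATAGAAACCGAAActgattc
Gbp2 chr3:142620594-142620623, plus strand: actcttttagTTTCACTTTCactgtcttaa
Gbp3 chr3:142559964-142560043, plus strand: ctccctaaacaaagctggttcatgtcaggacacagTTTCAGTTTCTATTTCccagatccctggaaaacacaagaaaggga
Gbp7 chr3:142530248-142530327, plus strand: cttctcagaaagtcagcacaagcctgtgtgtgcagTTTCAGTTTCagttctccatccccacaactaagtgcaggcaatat

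The 7 genes have 8 promoters in the table, and the ISRE core was in 1 promoter of each gene and in 3.44% of the 32851 promoters of the table. The second Gbp3 promoter, at chr3:142560106-142560405, held no match. The GAS motif TTCNNNGAA was in 4 of the 8, those of Gbp5, Gbp7, Igtp and Irgm2, against 8.30% of all promoters. Igtp, higher in LE, and Gbp7, lower in LE, thus both hold an ISRE core and a GAS. A p53 half-site, matched on both strands, was in the promoters of Gbp3, Gbp7 and Irgm1, against 8.36% of all, and the Igtp window held no match. A match is a run of letters, and no binding was measured in these libraries.

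The promoters of Igtp and Irgm2 are near copies. Of 265 aligned bases, 244 were identical (92.1%), and the stretches printed above differ at 2 of 80 positions. From Igtp to Irgm2 these are T39C and T69C, counted from 1 at the 5′ end of the stretch, both outside the ISRE core. T39C falls in the GAS match, at positions 36 to 44 of the stretch, on a base that the motif leaves free. The RefSeq start used for Irgm2 is downstream of the Igtp gene, whereas the gene model in GENCODE M21 reaches back to the first exon of Igtp. Beside these similar promoters, the log2 difference of LE against LPS was 1.70 for Igtp and 0.19 for Irgm2.

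Set against all kept genes, most of the 9 genes were lower in LE than in LPS and higher in LEKU than in LE. In LE against LPS, 4 were lower past 1.5-fold (Gbp2, Gbp7, Gbp9 and Iigp1) and 1 was higher (Igtp). Of all kept genes, 16.2% were lower and 21.9% higher. The median log2 difference was -0.53 over the 9 genes and -0.015 over all. In LEKU against LE, 3 were higher (Gbp2, Gbp7 and Iigp1) and 0 lower, where 7.16% of kept genes were higher and 11.6% lower. The medians were 0.45 and -0.038. In LEKU against LPS, 2 were higher (Igtp and Irgm2) and 0 lower, beside 20.5% and 15.5% of kept genes. The median over the 9 genes was -0.052 there, and it became positive under 4 other scalings. The 3 genes lower in LE and higher again in LEKU, Gbp2, Gbp7 and Iigp1, belong to 444 such genes, 2.86% of those kept. Iigp1 passed the filter through LPS and LEKU alone, where it is high, so its calls against LE are no result. A minimum of 50 dropped it, leaving 3 lower in LE against LPS and 2 higher in LEKU against LE. These comparisons share the LE libraries, so an LE value that is off moves both in opposite directions.

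**Figure D3:**
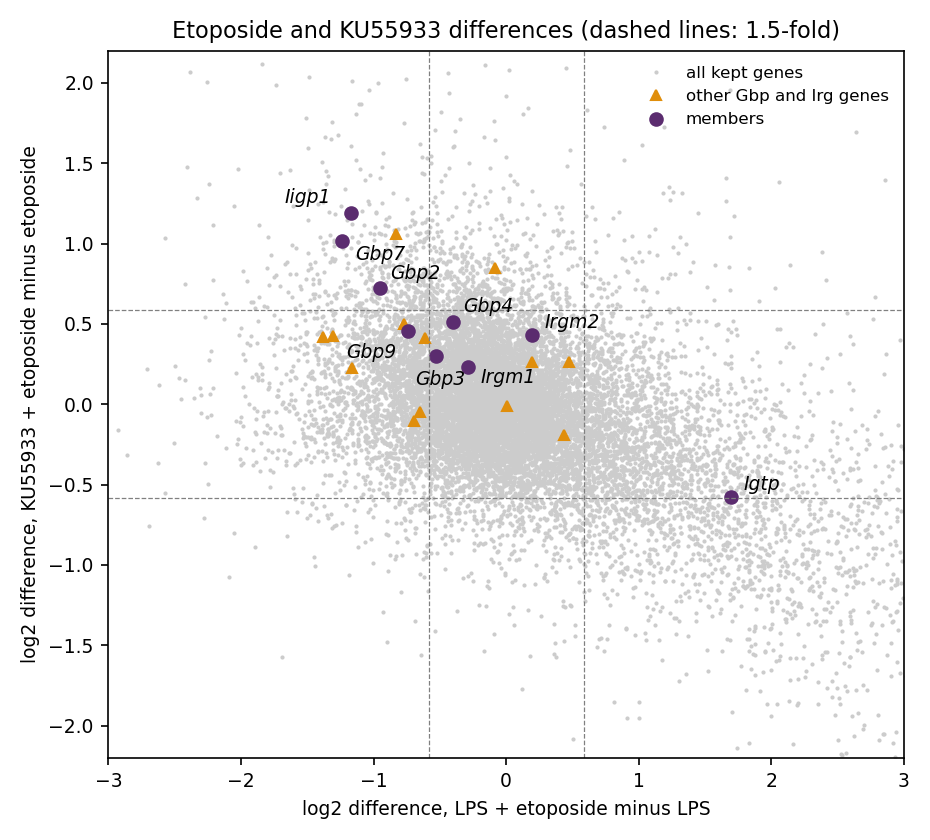
Log2 difference of LE minus LPS (horizontal) against that of LEKU minus LE (vertical) for all kept genes in grey, the 9 genes in purple and other Gbp and Irg genes as orange triangles. Dashed lines mark 1.5-fold and 350 kept genes lie beyond the axes. Gbp2, Gbp7 and Iigp1 lie in the upper left corner, and Igtp stands alone at the right, at 1.70 and -0.57.

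The calls over all genes moved with the scaling. Higher genes made up 57.5% of the calls in LE against LPS, 68.0% with library totals and 44.3% with quantile normalization. For LEKU against LE the share was 38.2%, and 49.5% with quantile normalization. For LEKU against LPS it was 56.9%, and 72.1% with library totals. Library totals shifted the median of all kept genes by 0.13 for LE against LPS and by 0.17 for LEKU against LPS. The sign of each of the 9 genes in LE against LPS and in LEKU against LE held under every scaling tried. Igtp ranged from 1.61 to 1.86 and Gbp7 from -1.32 to -1.10 in the first, the 0.13 shift included.

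Iigp1 (ENSMUSG00000054072; chr18:60376027-60392634, plus strand), the only effector Irg among the 9, was nearly silent. Its level of 17.8 in LPS exceeded that of 14.4% of kept genes, and its level of 7.33 in LE that of 0.587%. In LEKU it was at 18.0. Since it passed the filter through LPS and LEKU alone, where it is high, its calls against LE are no result. The log2 difference of LE against LPS was -1.17 (-2.01 with quantile normalization), with an exact 95% interval of -1.95 to -0.65, and that of LEKU against LE was 1.19, with an interval of 0.71 to 1.97. These intervals read the fitted values as counts and cover counting error only. For comparison, the interval of Gbp7 in LE against LPS was -1.29 to -1.19.

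Per kilobase of exon, which allows levels of different genes to be compared, the order of the genes changed. In LPS, Gbp2 was first at 2198 per kb, before Gbp3 at 1614, Gbp9 at 977, Igtp at 883 and Irgm1 at 730. Gbp7 at 479, Gbp4 at 363, Irgm2 at 342 and Iigp1 at 3.05 followed. In LE, Igtp was first at 2869 per kb, well before Gbp2 at 1136 and Gbp3 at 1121, which lay close together. Per kb of the longest transcript, Gbp3 at 1365 came before Gbp2 in LE, and in LPS Irgm1 at 1107 came next after Gbp3 and Gbp4 at 599 before Gbp7. In LEKU, per kb of exon, Igtp at 1926 and Gbp2 at 1879 were nearly level. Whether neighbours in these orders differ beyond their spread cannot be given, since no spread is left in the values.

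Of the other genes of both families, 13 of 17 listed were kept. In LE against LPS, 8 of them were lower past 1.5-fold and 0 higher, with a median log2 difference of -0.65. Among all kept genes, 16.2% were lower and 21.9% higher. Library totals left 5 lower and made 1 higher. In LEKU against LPS, 5 were lower and 2 higher, with a median of -0.20, beside 15.5% lower and 20.5% higher among all kept genes. The 2 higher are no larger a share than that of all genes. Among the 13 genes, Tgtp2, an effector Irg, was at 1018 in LPS, 390 in LE and 523 in LEKU. Ifi47, also an Irg gene, was at 2934, 1185 and 1588. Their log2 differences were -1.38 and -1.31 for LE against LPS and 0.42 each for LEKU against LE. In LEKU against LE, 2 were higher, Gbp2b and Gbp6, and 0 lower, where 7.16% of all kept genes were higher and 11.6% lower. Gbp2b, a near neighbour of Gbp2, stood at 3520, 1975 and 4122, and thus at log2 differences of -0.83 and 1.06. The row named Gbp6, at 897, 844 and 1523, carries an identifier that M21 names Gm43302 and shares exons with Gbp10. No other kept Gbp or Irg gene was called higher in LE, and the nearest were Gbp8 at 0.48 and Gm12250, an Irg gene upstream of Igtp, at 0.44.

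Among other large GTPases that interferons induce, Gvin1 was lower in LE, at 13637 in LPS, 5942 in LE and 7594 in LEKU. The antiviral Mx1 was at 2399, 3474 and 3526 and Mx2 at 1061, 1545 and 1966. In LE against LPS, their log2 differences of 0.53 and 0.54 did not reach 1.5-fold, but both passed it with library totals, upper quartiles, a minimum of 50 and size factors from genes with a mean of at least 100. Gvin1 and the Mx genes thus did not share 1 direction in LE against LPS. In LEKU against LE all 3 had positive log2 differences, Mx1 of only 0.022, and none passed 1.5-fold.

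Upstream, interferon mRNAs were scarce. Ifng was at 0.26 in LPS, 0.35 in LE and 0.29 in LEKU, and of the 7 listed ligands only Ifna4, a type I interferon, was kept. Ifna4 was at 2.07, 2.81 and 17.0, a log2 difference of 2.24 for LEKU against LE. It passed the filter through LEKU alone, the group where it is high, so the difference is a description of a gene that had to be higher there. Ifnb1 was at 1.16, 2.01 and 5.79. Both lay highest in LEKU, at levels of few reads per library. None of the 4 receptor genes passed 1.5-fold in any comparison, but 1, Ifngr1, did in LEKU against LPS with library totals and with upper quartiles. Ifnar1, a type I interferon receptor chain, was at 3191, 2904 and 3969.

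Of the 10 listed kinases and transcription factors, 9 were kept, and 4 were lower in LE past 1.5-fold with 0 higher. Among all kept genes, 16.2% were lower in LE and 21.9% higher. The 4 factors were Irf8, which acts in B cell development, at a log2 difference of -1.98, the receptor kinase Jak1 at -1.24, Stat2 at -1.17 and Irf2, mainly a repressor, at -1.11. Stat2 was at 6352, 2827 and 5550, and so was higher again in LEKU, by 0.97. Jak2, a kinase of the interferon gamma receptor, was also higher in LEKU than in LE, by 0.88, while Jak1 was at -0.11 there. Irf1, an early interferon-induced factor, was at 1934, 2287 and 2589 and did not pass 1.5-fold. Stat2 and Jak2 were thus the listed factors past 1.5-fold in LEKU against LE, where 7.16% of all kept genes were higher. Gbp2 and Gbp7 were higher there too, and a link to Stat2 or Jak2 was not tested.

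Among 5 genes that limit interferon signals, 4 had negative log2 differences in LE against LPS, with a median of -0.32, and 3 had positive ones in LEKU against LE, with a median of 0.14. Socs1, an inhibitor of Jak kinases, was at 62.4 in LPS, 229 in LE and 253 in LEKU, a log2 difference of 1.86 in LE. It was the one called in LE against LPS, where 21.9% of all kept genes were higher and 16.2% lower. Socs3 was at 926, 903 and 1866 and was called higher in LEKU against LE, at 1.05, as were 7.16% of all kept genes. Usp18, which removes the ubiquitin-like Isg15 and damps type I signals, had log2 differences of -0.32 and 0.38 and was not called.

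**Figure D4:**
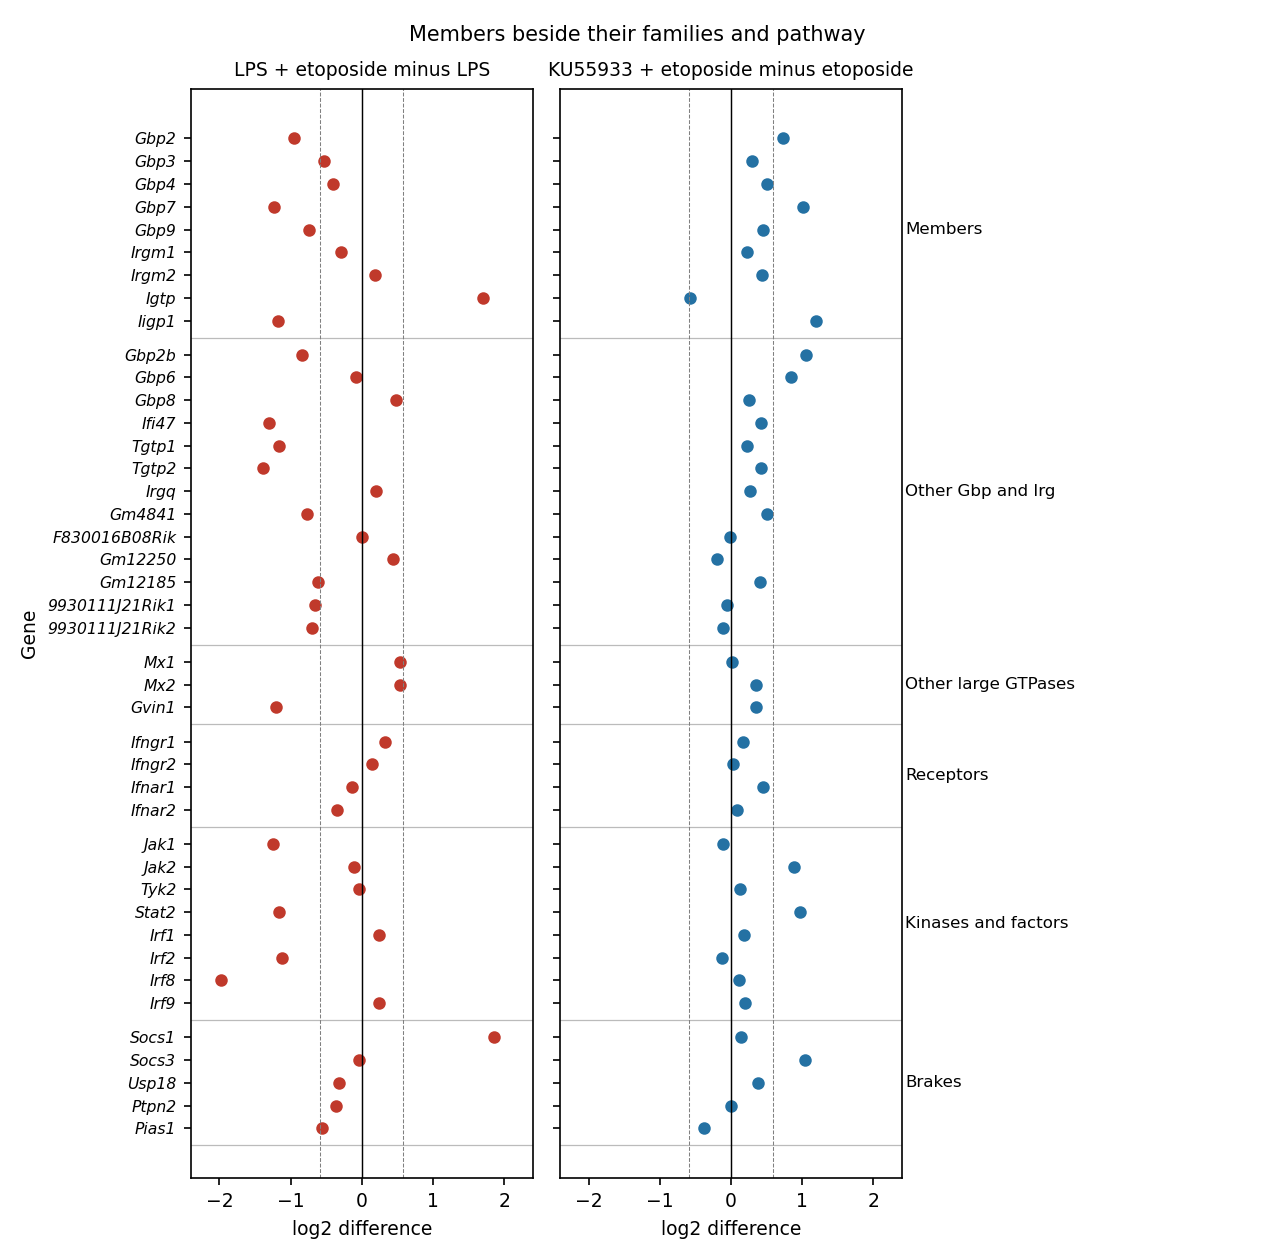
Log2 difference of LE minus LPS (left, red) and LEKU minus LE (right, blue) for kept genes of each group, without 1 factor that is not reported: the 9 genes, other Gbp and Irg genes, other large GTPases, receptors, kinases and factors, and brakes of the signal. Each point is 1 gene and dashed lines mark 1.5-fold. Igtp at 1.70 and Socs1 at 1.86 are the points past the right line in the left panel.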

How the data were processed

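mRNA of 12 libraries was measured by polyA-selected mRNAseq. Per the labels and the study's methods, the authors trimmed reads with Trim Galore and cutadapt 1.2.1, mapped them with TopHat2 2.0.12 to GRCm38, counted them with HTSeq on Ensembl annotation and fitted DESeq2 1.6.3. The strand setting of the counting is not given in the sources used here. The deposited table holds a signal per gene and library, which was tested and is the fitted mean of the group times a size factor. All columns of the authors' own fold changes, standard errors, test scores and p-values, were not used, except that the mean signal deposited over all libraries served in 1 alternative scaling.

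Size factors were the median of ratios over genes with at least 10 in at least 4 libraries, and a level is a column divided by its factor. Log2 differences used a pseudocount of 1, and those of low genes are understated. The lowest value in the table is 0.0635, so no gene is at 0. In place of the planned limma test, which requires values of single replicates, differences past 1.5-fold were called. Intervals are exact binomial ones at 95%. The 9 genes were matched by symbol and identifier to GENCODE M21, and promoters to RefSeq. The scripts were tested on simulated data with 200 altered genes.

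The genes described are all those named at the start. The genes and the lists were chosen with earlier results of these data known. The 5 genes most like them were those with a mean level of at least 100 outside the lists and the smallest distance to their median differences. Alternatives were other scalings, pseudocounts of 0.5 and 5, no filter, a minimum of 50, a 2-fold call and, for levels, the longest transcript. A scaling on genes with a mean of at least 100 was added after seeing the data. The tools were Python 3.11.15, pandas 2.3.3, numpy 2.4.6, biopython 1.88, scipy 1.17.1 and matplotlib 3.10.9. Values of 2 single genes of the lists are not reported here.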

Additional observations from a re-analysis of the deposited data

How the results depend on the processing

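The columns hold fitted group means, so leaving out a replicate changes no value and was not run. How far replicates agree cannot be read from these columns, and the authors' standard errors were not used. No paired analysis was possible because the columns of a group are proportional to each other and the replicate numbers carry no values of their own. Depth limits Iigp1 and the interferon genes, which rest on few reads. The annotation used for lengths and overlaps is later than the Ensembl release the authors counted on.

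The median log2 difference of the 9 genes in LE against LPS, -0.53, was -0.40 with library totals, -0.45 with upper quartiles, -0.33 with quantile normalization, -0.61 with no filter, -0.44 with size factors from genes with a mean of at least 100. A minimum of 50 dropped Iigp1 and gave -0.41 over the other 8 genes, and -0.47 over all 9. In LEKU against LE, the median of 0.45 was 0.50 with library totals and 0.56 with quantile normalization. In LEKU against LPS, the median of -0.052 changed sign to 0.12 with library totals, 0.045 with upper quartiles, 0.096 with quantile normalization and 0.019 with size factors from genes with a mean of at least 100. It was -0.11 with no filter and, with a minimum of 50, -0.091 over 8 genes and -0.0067 over all 9. With offsets fitted to the deposited mean and with size factors from genes with a mean of at least 100, Igtp was called lower in LEKU against LE, a count of 1 against 0. With no filter, as with a 2-fold call, 1 gene in place of 2 was higher in LEKU against LPS, and with a 2-fold call 2 in place of 4 were lower in LE. Per kb of the longest transcript, the median level was 883 in LPS, 601 in LE and 823 in LEKU, against 730, 586 and 705 per kb of all exons. Each of the 9 genes kept its sign in LE against LPS and in LEKU against LE under these alternatives. Some other listed genes did not in LE against LPS, among them Gbp6, Ifnar1, Jak2, Tyk2, Socs3, Casp4 and Ifna4.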

Other observations

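Genes that act with Gbp and Irg proteins on vacuoles were called in both directions. Of 14 listed, 2 were higher in LE against LPS past 1.5-fold, the autophagy genes Atg12 and Map1lc3a, and 2 were lower, Atg7 at a log2 difference of -0.74 and Ube2l6, which conjugates Isg15, at -0.67, beside 21.9% higher and 16.2% lower among all kept genes. These counts are no larger a share than that of all genes. Library totals gave 3 higher and 1 lower, and with no filter the counts were 0 and 3. In LEKU against LE, 1 was higher, Sqstm1, which encodes the autophagy receptor p62, at 4158 in LPS, 4697 in LE and 7357 in LEKU. This count is about the share of all kept genes higher there, 7.16%. In LEKU against LPS, 5 of the 14 were higher and 2 lower, beside 20.5% higher and 15.5% lower among all kept genes. Library totals gave 6 higher and 1 lower there.

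Of 7 listed inflammasome genes, Il1b and Nlrp3 were higher in LE past 1.5-fold and Il18 was lower. Among all kept genes, 21.9% were higher and 16.2% lower, so these counts are near the shares of all genes. Il1b was at 22.5, 143 and 186 and Nlrp3 at 3.67, 15.3 and 7.06 in LPS, LE and LEKU. Nlrp3 passed the filter through LE alone, so that its call there is no result. Casp4, the caspase that senses cytosolic LPS, was at 1526, 1425 and 1523. Il1b and Nlrp3 are also expressed by macrophages, whose 8 markers summed to 422, 473 and 436. Among these, Cd14 was at 5.18, 24.2 and 40.6, Cd68 at 105, 211 and 175, and Itgam at 220, 129 and 115, and the part of such cells was not tested.

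The genes with differences most like the median of the 9 genes, over LE against LPS and LEKU against LE in 3 groups, were Mrgpre, Tigd2, Pigp, 0610009O20Rik and Eml3, at distances of 0.016 to 0.030 on the log2 scale. Genes on the lists used here were left out of the candidates beforehand, and 87 of 10805 candidate genes lay within 0.1.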
